A study of Mus musculus with 6 samples.

Results

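A set of 10 genes with which lung fibroblasts (FBs) send, shape or answer Wnt signals was followed by their gene symbols through 6 droplet single-cell RNA sequencing libraries. They were the ligands Wnt2, Wnt4 and Wnt5a, the agonist Rspo1, the secreted antagonists Sfrp1, Sfrp2, Frzb, Wif1 and Dkk3, and the response gene Axin2. All 10 were found in every library, among 30828 genes shared by the tables of the single-dose experiment and 32285 in the other tables.

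The libraries came from male Pdgfra-GFP reporter mice, in which a green nucleus marks cells with an active Pdgfra gene, and GFP+ cells were sorted from dissociated lung. In the single-dose experiment the mice received PBS or bleomycin, a drug that injures the lung and is followed by fibrosis, by oropharyngeal aspiration and were sampled on day 14. For this bleomycin library the general protocol states 2 U/kg, whereas the sample's own treatment entry states 4 U/kg. In the repetitive experiment the mice received 3 weekly doses of PBS or of bleomycin, the latter as 2 doses of 1 U/kg followed by 0.5 U/kg, and were sampled 2 weeks after the last dose. In the organoid experiment, tomato+ alveolar type 2 epithelial cells (AEC2s) from tamoxifen-induced SpcCreER x Rosa-td26 mice, in which Cre turns on a tomato reporter and whose Cre is driven by the surfactant protein C promoter, were grown for 2 weeks in Matrigel with GFP+ FBs. The FBs were normal (from mice given PBS) or fibrogenic (from mice given 2 U/kg bleomycin, day 14). Each condition was 1 library made from the pooled cells of 3 mice, which for the organoids were the donors of the FBs. The number of mice that gave the AEC2s is not given here. No difference between mice could therefore be measured, no test between conditions was possible, and every interval below covers counting error only, at 95% confidence. The sort also limits what the levels describe, since FBs without an active Pdgfra reporter were not collected.

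Wnt ligands are secreted, lipid-modified proteins that bind Frizzled receptors on nearby cells. In the canonical branch this stabilizes beta-catenin, which acts with TCF/LEF factors on genes such as Axin2, itself a feedback inhibitor and a widely used readout of the pathway. R-spondins strengthen the signal by protecting Frizzled receptors from degradation, whereas secreted Frizzled-related proteins (Sfrp1, Sfrp2 and Frzb, also called Sfrp3) and Wif1 bind Wnt ligands outside the cell. Dkk3 is a divergent member of the Dickkopf family, and its action on Wnt signalling depends on the cell type. In the alveolus, Wnt ligands from Pdgfra+ FBs are known as a niche signal for a subset of AEC2s.

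All members are protein coding, and their positions in the mouse genome (RefSeq, GRCm38.p6) are as follows: Wnt2 at chr6:17985474-18032772, Wnt4 at chr4:137277635-137299501, Wnt5a at chr14:28504543-28527448, Rspo1 at chr4:124986401-125009102, Sfrp1 at chr8:23411383-23449632, Sfrp2 at chr3:83765750-83774314, Frzb at chr2:80411970-80447396, Wif1 at chr10:121034004-121100642, Dkk3 at chr7:112116019-112159482 and Axin2 at chr11:108917828-108950783. RefSeq promoter sequences were at hand for 7 of the 10 members. The 250 bases before the start site of that table are printed for Wnt2, the ligand that was lower after bleomycin, for Sfrp2 and Frzb, antagonists that were higher together, and for Axin2, the response gene. For Wnt2, Sfrp2 and Axin2 this start site lies within the span of the gene given above, which reaches further upstream, and for Frzb it is the end of the span. The windows are chr6:18030446-18030695 (minus strand), chr3:83766071-83766320 (plus strand), chr2:80447397-80447646 (minus strand) and chr11:108920099-108920348 (plus strand). Each is written 5' to 3' along its gene, and capitals mark the 5-letter core CTTTG of the TCF/LEF site or its reverse complement CAAAG.
Wnt2: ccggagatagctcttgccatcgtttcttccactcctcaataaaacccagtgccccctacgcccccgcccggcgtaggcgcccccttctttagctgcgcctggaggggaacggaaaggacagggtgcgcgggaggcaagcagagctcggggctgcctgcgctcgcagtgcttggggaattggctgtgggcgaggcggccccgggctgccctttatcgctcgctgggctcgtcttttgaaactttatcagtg
Sfrp2: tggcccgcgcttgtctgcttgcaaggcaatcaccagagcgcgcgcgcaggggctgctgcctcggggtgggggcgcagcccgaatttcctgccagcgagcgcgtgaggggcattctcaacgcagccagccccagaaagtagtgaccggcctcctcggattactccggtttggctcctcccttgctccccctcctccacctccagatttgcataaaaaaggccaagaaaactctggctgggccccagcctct
Frzb: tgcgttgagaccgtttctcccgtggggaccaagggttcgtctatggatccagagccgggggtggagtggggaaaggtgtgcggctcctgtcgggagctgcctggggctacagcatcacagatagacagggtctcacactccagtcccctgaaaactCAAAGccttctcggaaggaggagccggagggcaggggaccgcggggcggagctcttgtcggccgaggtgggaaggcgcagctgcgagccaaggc
Axin2: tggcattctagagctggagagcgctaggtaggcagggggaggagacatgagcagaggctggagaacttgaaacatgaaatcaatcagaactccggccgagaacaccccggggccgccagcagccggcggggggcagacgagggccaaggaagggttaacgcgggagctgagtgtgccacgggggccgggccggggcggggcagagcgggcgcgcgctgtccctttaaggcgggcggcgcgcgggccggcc
In these 4 windows the core stood once, in Frzb. Among the 7 promoters it was also found once in Wif1, so 2 of 7 held it, against 48.6% of 32851 mouse promoters of the same length. The longer 7-letter motif (the core followed by 2 letters that are each A or T, on either strand) stood in 0 of the 7, against 14.8% of all promoters. These counts describe letters in a short window and say nothing of binding elsewhere.

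FBs were taken as barcodes with unique molecular identifiers (UMIs, each a captured transcript) of at least 3 of 8 FB markers that made up 20 or more of every 10000 UMIs, where no other lineage met the same bound. This left 902 and 829 FBs in the single-dose PBS and bleomycin libraries, 5314 and 8941 in the repetitive pair, and 2309 and 4673 in the organoids with normal and fibrogenic FBs. The median depth of an FB was between 2606 and 46136 UMIs, and 42.7% of FBs of the repetitive bleomycin library and 33.5% of those of the fibrogenic organoids had under 2000 UMIs. A Pdgfra UMI was found in 58.2% to 93.2% of the lung FBs. Summed markers of other lineages were higher in bleomycin than in PBS FBs in both lung experiments, for instance 84.2 and 114 CPM (UMIs per 1000000) for 8 myeloid markers after a single dose and 4.16 and 123 CPM for 8 B and plasma cell markers in the repetitive pair, and their part in the results was not tested. Libraries shared at most 30 barcodes.

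Within the FBs, subsets were gated by markers of the populations named in the study, which were lipofibroblasts (LipoFBs), matrix FBs (MatrixFBs), myofibroblasts (MyoFBs), proliferating progenitors and mesothelial FBs (MEFBs). Gates for ductal FBs and for smooth muscle and mural cells were added here. Barcodes below every cut were kept as other FBs. None of the 10 members was a marker of any gate. The study, however, chose some of these markers on the single-dose libraries, and itself names Wnt4 among its MEFB genes and a gene written Wnt2a among its LipoFB genes, so high levels of Wnt2 and Wnt4 in these subsets are no independent result. A gate of this kind is a range of a score and not a cell type, and of the LipoFB-like cells 65 of 640 in single-dose PBS and 455 of 1727 in repetitive bleomycin lay just above the cut. The study itself placed LipoFBs predominantly of control lung and LipoFBs of bleomycin lung in separate clusters. A ratio within LipoFB-like cells may therefore compare cells of different clusters, which was not tested. LipoFB-like cells were 71.0% of FBs in single-dose PBS and 17.9% after bleomycin, and 74.1% and 19.3% in the repetitive pair. The summed LipoFB markers over all FBs were also lower, at 14540 and 3277 CPM and at 9024 and 3074 CPM. Fewer LipoFBs and lower marker levels per LipoFB cannot be told apart here. Depth differed as well, and a subset needed 3 detected markers. The median FB had 10630 UMIs in repetitive PBS and 2606 in repetitive bleomycin, where LipoFB-like cells had 5061 and other FBs 2190.5. In the single-dose pair the bleomycin FBs were deeper, at 11665 UMIs against 6880.5. The part of depth in the subset shares was not tested.

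Across FBs of the lung, the secreted antagonists Sfrp1, Sfrp2 and Frzb and the ligand Wnt5a were higher after bleomycin in both experiments, Wnt2 was lower, and Axin2 differed little. The change was read as a log2 ratio of CPM after 1 CPM was added to each level, and a gene was counted as higher or lower at a log2 ratio of 1 or more in size, among genes with a mean of 2 CPM and 20 UMIs or more. After a single dose, 4 of the 10 members were counted as higher and 0 as lower, where 7.91% of 11355 genes were higher and 3.87% lower. After repetitive doses 5 members were higher and 1 was lower, against 6.85% and 2.18% of 12164 genes. These counts are descriptions and not support for a trend of the members, since Sfrp2 and Frzb after a single dose and Frzb and Wif1 after repetitive doses were under 2 CPM in PBS and passed the filter through their bleomycin level. The median log2 ratio of the 10 members was 0.58 and 1.00 (0.997), and that of all genes 0.07 and 0.11. All ratios of the repetitive pair are thus to be read against a general shift of 0.11. The 2 experiments do not share samples, so each has its own control.

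**Figure D1:**
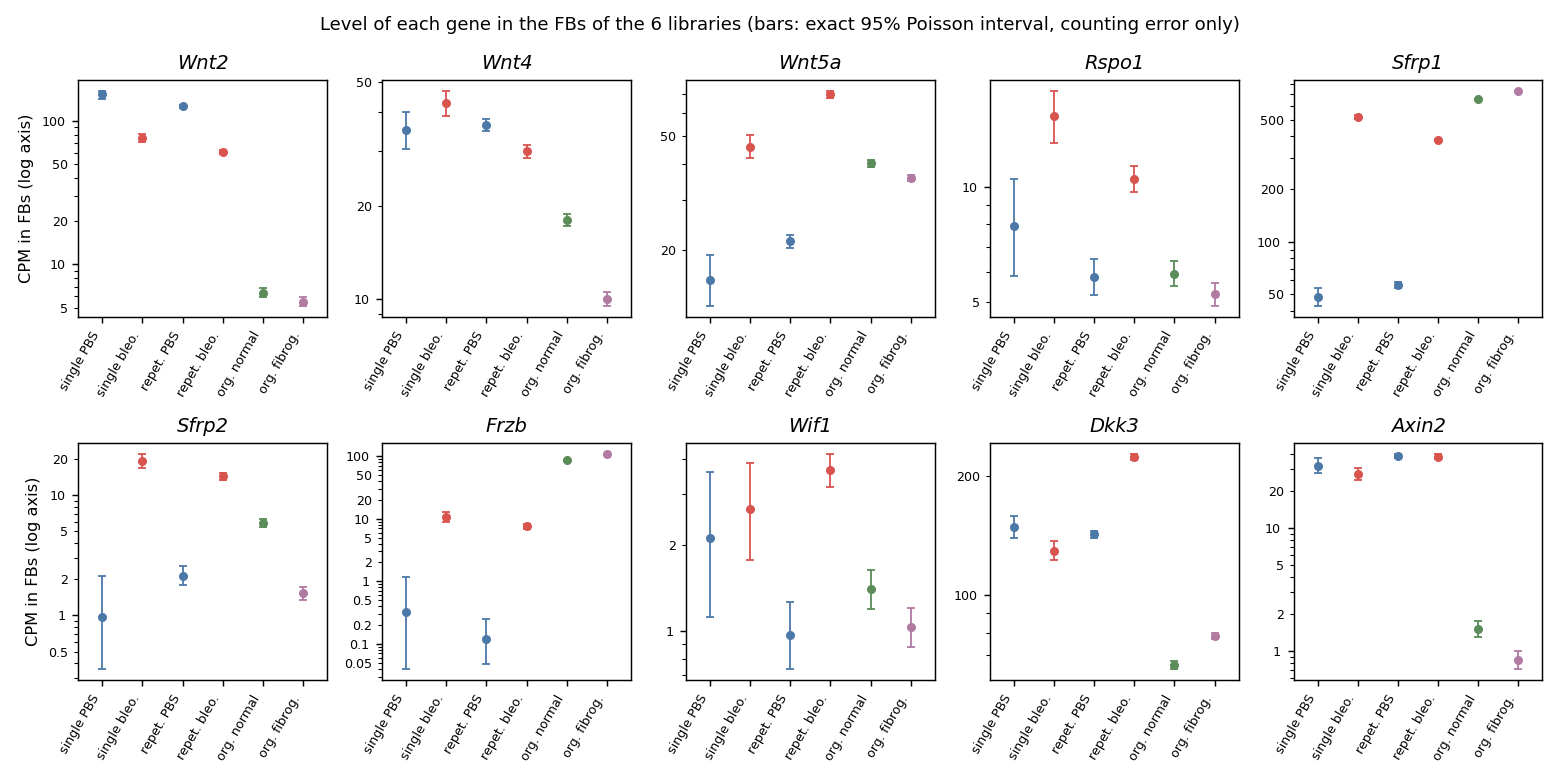
Level of each of the 10 genes in the FBs of the 6 libraries, in CPM on a log axis that differs between panels, with bars for the exact Poisson interval of counting error (n = 1 library per point). Blue points are PBS, red points bleomycin, green and purple points the organoids with normal and fibrogenic FBs. Sfrp1, Sfrp2, Frzb and Wnt5a lie higher in both bleomycin libraries than in their PBS libraries, Wnt2 lies lower, and Wnt2 and Axin2 are lowest in the organoids.

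Wnt2, a ligand of lung mesenchyme that takes part in lung development, stood at 152 CPM in single-dose PBS FBs and at 75.9 CPM after bleomycin. In the repetitive pair it stood at 126 and 60.7 CPM. The bleomycin level was 0.498 times the PBS level after a single dose (0.453 to 0.548) and 0.481 times after repetitive doses (0.462 to 0.500). With 1 CPM added, as for the counts of members, the log2 ratios were -0.996 and -1.04, so that the bound of 1 in size separates 2 nearly equal values. Both bleomycin libraries thus lay below both PBS libraries.

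Within the LipoFB-like cells, the Wnt2 levels of PBS and bleomycin were closer. Wnt2 stood at 201 CPM in PBS and at 212 CPM after a single dose of bleomycin (ratio 1.05, 0.926 to 1.19), and at 162 and 144 CPM in the repetitive pair (0.886, 0.842 to 0.932). The direction in the repetitive pair turned with the cut. With a subset score of at least 0.25 in place of 0.15, the log2 ratio was 0.20 in place of -0.17. In MatrixFB-like cells the level was 10.6 and 10.4 CPM, and 6.49 and 19.6 CPM. MyoFB-like cells, of which the PBS libraries held 1 and 7, had 30.8 and 30.1 CPM in the bleomycin libraries. The other FBs had 66.7 and 79.8 CPM, and 26.7 and 49.5 CPM. LipoFB-like cells therefore had the highest Wnt2 level of any subset of at least 20 cells in each lung library. They held 90.5% of the Wnt2 UMIs of FBs in single-dose PBS and 96.4% in repetitive PBS, with 68.6% and 74.9% of all FB UMIs. In the bleomycin libraries they held 43.1% and 51.1%, with 15.5% and 21.6% of UMIs. After a single dose of bleomycin the other FBs held about as many Wnt2 UMIs as the LipoFB-like cells (340 and 343).

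Wnt2 was also compared by cells in which it was seen. Cells under 1000 UMIs were left out (202 of 1727 LipoFB-like and 329 of 2316 MatrixFB-like cells of repetitive bleomycin, against 5 of 3939 and 25 of 628 in repetitive PBS, and 0 to 2 of each in the single-dose libraries). Of the other FBs, 880 of 4034 were left out in repetitive bleomycin and 9 of 641 in repetitive PBS. After each remaining cell was thinned to 1000 UMIs, a Wnt2 UMI was found in 18.8% of LipoFB-like cells in single-dose PBS (15.8 to 22.0%) and 16.3% after bleomycin (10.7 to 23.3%), and in 15.7% (14.5 to 16.8%) and 11.5% (9.92 to 13.2%) in the repetitive pair. These shares use the cut of 0.15, with 455 of 1727 LipoFB-like cells of repetitive bleomycin and 329 of 3939 of repetitive PBS just above it, and no direction is read from them. In MatrixFB-like cells the shares were 1.06%, 1.80%, 0.663% and 3.02% in the same order, and in the other FBs 5.41%, 7.01%, 3.80% and 4.31%. Without thinning, 64.1%, 77.0%, 69.9% and 39.9% of LipoFB-like cells had a Wnt2 UMI, at median depths of 6747, 10654.5, 10651 and 5061 UMIs. T cells served as the background, since they should lack these genes. In the repetitive libraries 0 of 90 and 0 of 51 thinned T cells had a Wnt2 UMI, which allows up to 3.33% and 5.88% by a limit of 3 counts and up to 4.02% and 6.98% by the exact binomial interval, and without thinning 2.13% and 0% did, at median depths of 3265 and 4442 UMIs. The single-dose libraries held too few T cells for this. In the repetitive libraries the LipoFB-like shares thus lay above the exact limit of the T cells, and the shares of MatrixFB-like cells and other FBs did not. These limits are wide because they rest on 90 and 51 T cells, so a share under them is not shown to be background. In repetitive bleomycin 1 of 90 myeloid and 0 of 87 B or plasma cells had a Wnt2 UMI, with limits of 6.04% and 4.15%. The share of other FBs there, 4.31% (3.63 to 5.08%), lay between these limits.

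Wnt4, a ligand with roles in mesenchyme and mesothelium, differed less over all FBs. It stood at 35.0 and 42.6 CPM in the single-dose PBS and bleomycin libraries and at 36.2 and 29.8 CPM in the repetitive pair. The log2 ratios of 0.28 (0.05 to 0.51) and -0.27 (-0.36 to -0.19) pointed in opposite directions. Its levels differed between subsets. MEFB-like cells had 438 CPM in single-dose bleomycin (20 cells) and 596 CPM in repetitive bleomycin (57 cells), while no other subset of at least 20 cells passed 95.9 CPM, the level of ductal FB-like cells in repetitive PBS. MEFB-like cells held 27.7% of the Wnt4 UMIs of single-dose bleomycin FBs with 2.70% of all their UMIs, and 19.5% with 0.977% in repetitive bleomycin. The PBS libraries held 1 and 13 MEFB-like cells, so the total over FBs also depends on how many such cells were caught.

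Wnt5a, the prototype of ligands that act without beta-catenin, stood at 15.7 CPM in PBS and 46.0 CPM after a single dose of bleomycin, a ratio of 2.93 (2.35 to 3.68) and a log2 ratio of 1.49. In the repetitive pair it stood at 21.4 and 70.1 CPM, a ratio of 3.27 (3.07 to 3.49) and a log2 ratio of 1.67. The intervals of PBS and bleomycin did not overlap in either experiment. The ratio was larger in LipoFB-like than in MatrixFB-like cells. LipoFB-like cells had 7.79 and 43.2 CPM after a single dose (5.54 times, 3.61 to 8.65) and 13.0 and 56.4 CPM in the repetitive pair (4.33 times, 3.88 to 4.84). MatrixFB-like cells began higher, at 44.1 and 73.7 CPM in PBS, and had 74.9 and 78.4 CPM after bleomycin (1.70 and 1.06 times). Ductal FB-like cells of the repetitive pair had 33.8 and 131 CPM. After thinning, a Wnt5a UMI was found in 3 of 640 LipoFB-like cells of single-dose PBS (0.469%, 0.0968 to 1.36%). In single-dose bleomycin it was found in 4 of 147 (2.72%, 0.746 to 6.82%), and these intervals overlap. In the repetitive pair the LipoFB-like shares were 1.22% and 5.70%. There 0 of 90 and 0 of 51 T cells had a Wnt5a UMI, with exact upper limits of 4.02% in PBS and 6.98% in bleomycin. Neither LipoFB-like share of the repetitive pair passed the T cell limit of its own library. These limits rest on few T cells. In repetitive bleomycin 0 of 90 myeloid and 0 of 87 B or plasma cells had a Wnt5a UMI, with limits of 4.02% and 4.15%. The LipoFB-like share of 5.70% (4.59 to 6.99%) lay above both. It did not pass the 6.98% of the T cells or the 16.8% that 0 of 20 endothelial cells allow. Each limit depends on how many cells of its lineage were caught. In repetitive PBS 0 of 85 myeloid and 0 of 40 B or plasma cells had a Wnt5a UMI, with limits of 4.25% and 8.81%. The LipoFB-like share of 1.22% did not pass these.

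Rspo1, an R-spondin, stood at 7.94 and 15.4 CPM in the single-dose pair (1.94 times, 1.40 to 2.72) and 5.83 and 10.6 CPM in the repetitive pair (1.81 times, 1.58 to 2.07). Neither log2 ratio, 0.87 and 0.76, reached the bound. Rspo1 was a gene of MatrixFB-like and MEFB-like cells. MatrixFB-like cells had 38.8 and 54.9 CPM in single-dose PBS and bleomycin, with a ratio of 1.41 whose interval of 0.869 to 2.39 spans no difference, and 35.7 and 36.8 CPM in the repetitive pair (1.03, 0.865 to 1.23). They held between 44.9% and 66.7% of the Rspo1 UMIs in the 4 lung libraries. MEFB-like cells had 212 CPM after a single dose of bleomycin and 102 CPM after repetitive doses. After a single dose 20 MEFB-like cells held 60 of the 161 Rspo1 UMIs of bleomycin FBs, and the PBS library held 1 such cell. In the repetitive pair a Rspo1 UMI was found after thinning in 4 of 13 MEFB-like cells of PBS and 2 of 54 of bleomycin. The total over FBs thus also depends on how many MEFB-like cells were caught. LipoFB-like cells stayed between 1.39 and 3.78 CPM in every lung library.

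**Figure D2:**
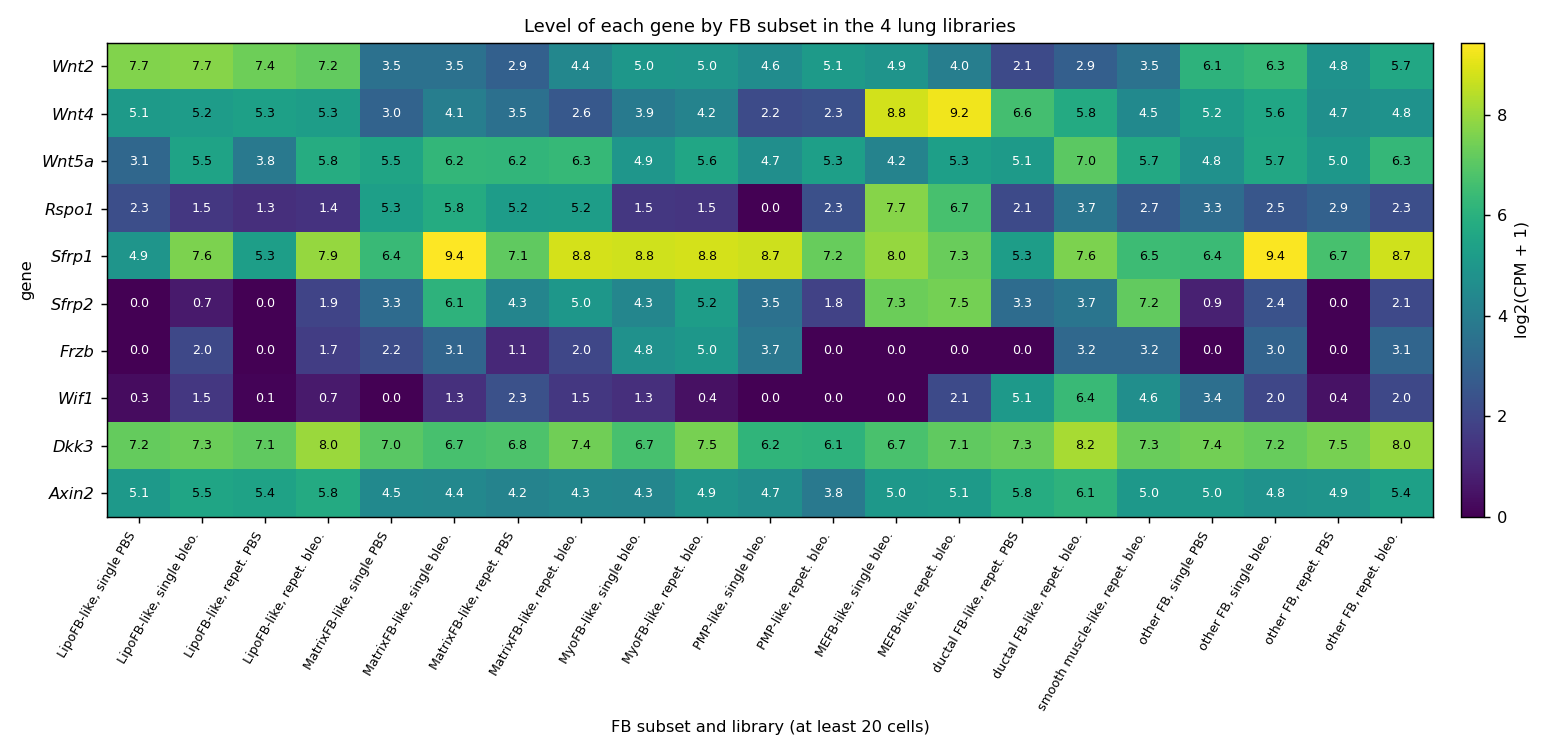
Level of each gene (rows) in each FB subset of the 4 lung libraries with at least 20 cells (columns), as log2(CPM + 1), printed in each cell and shown by colour. Wnt2 is highest in the LipoFB-like columns, Wnt4 and Rspo1 in the MEFB-like columns, Wif1 in the ductal FB-like columns and Frzb in the MyoFB-like columns, while Sfrp1 is higher in bleomycin than in PBS in each of the LipoFB-like, MatrixFB-like, ductal FB-like and other FB pairs.

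Sfrp1, a secreted Frizzled-related protein, stood at 48.1 CPM in PBS and at 517 CPM after a single dose of bleomycin, a ratio of 10.8 (9.56 to 12.1) and a log2 ratio of 3.40. In the repetitive pair it stood at 56.4 and 380.1 CPM, a ratio of 6.74 (6.49 to 6.99) and a log2 ratio of 2.73. Both bleomycin levels were far above both PBS levels. Sfrp1 was also higher within each subset that had at least 20 cells in both libraries of a pair. LipoFB-like cells had 29.0 and 187 CPM after a single dose (6.45 times, 5.22 to 8.02) and 38.4 and 243 CPM in the repetitive pair (6.31 times, 5.95 to 6.70). MatrixFB-like cells had 82.9 and 689 CPM (8.31 times, 6.20 to 11.4) and 139 and 448 CPM (3.23 times, 2.98 to 3.49). In the FBs of no named subset the ratios were 7.74 (6.35 to 9.51) and 4.13 (3.85 to 4.43). Ductal FB-like cells of the repetitive pair had 37.2 and 188 CPM, and MyoFB-like cells had 430.4 and 448 CPM in the 2 bleomycin libraries. The single-dose ductal FB-like cells, 11 in PBS and 9 in bleomycin, went the other way on 8 UMIs each. They had 132 CPM (57.0 to 260) and 85.3 CPM (36.8 to 168).

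The share of cells with an Sfrp1 UMI was higher after bleomycin as well. After thinning it was 2.19% and 17% of LipoFB-like cells in single-dose PBS and bleomycin and 3.13% and 20.4% in the repetitive pair, and without thinning 11.4%, 61.5%, 19.5% and 48.5%. Among MatrixFB-like cells it was 9.57%, 38.3%, 10.4% and 29.2% after thinning, and 25.3%, 75.1%, 39.3% and 54.3% without. No thinned T cell of the repetitive libraries had an Sfrp1 UMI (0 of 90 and 0 of 51), nor did any T cell without thinning. In the repetitive pair the PBS share of LipoFB-like cells was within the exact limit of 4.02% that these T cells allow, and the bleomycin share was above the 6.98% they allow. The limit of 4.02% is wide because it rests on 90 T cells. In repetitive PBS 0 of 85 myeloid, 0 of 40 B or plasma and 0 of 43 endothelial cells had an Sfrp1 UMI, and in repetitive bleomycin 1 of 90, 0 of 87 and 0 of 20. The single-dose libraries had 17 and 5 thinned T cells, too few to set the shares against.

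**Figure D3:**
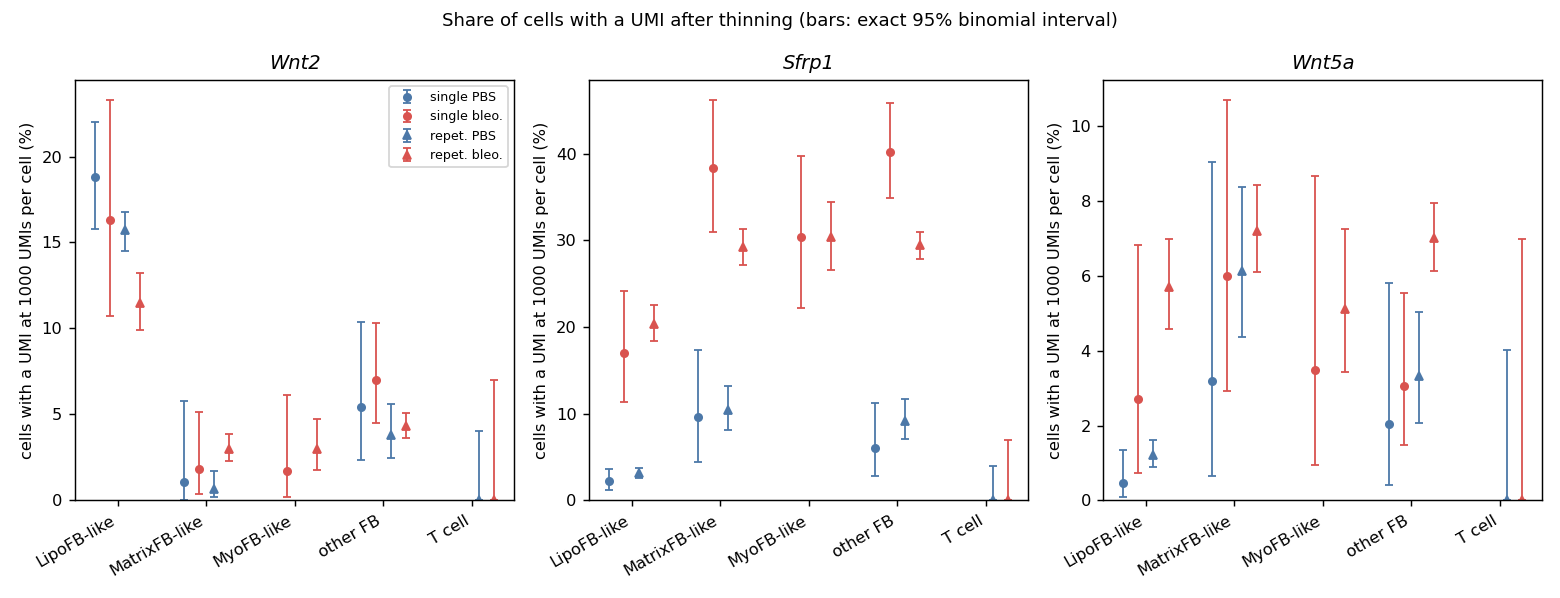
Share of cells with at least 1 UMI of the gene after each cell was thinned to 1000 UMIs (shallower cells left out), with exact binomial intervals, by cell group and lung library. Wnt2 is highest in LipoFB-like cells at 11.5% to 18.8% and lower in the other FBs at 3.80% to 7.01%, whereas Sfrp1 is found in 17% to 40.2% of the LipoFB-like, MatrixFB-like and other FBs of the bleomycin libraries against at most 10.4% in PBS.

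Sfrp2 was almost absent from PBS FBs, with 6 UMIs (0.972 CPM) in the single-dose and 126 UMIs (2.15 CPM) in the repetitive library, and stood at 19.3 and 14.3 CPM after bleomycin. The ratios were 19.8 (8.95 to 54.7) and 6.68 (5.53 to 8.11), with log2 ratios of 3.36 and 2.29. The 6 and 126 UMIs of PBS sat in 4 and 28 cells, and the intervals do not cover which cells were caught. MatrixFB-like cells held 83.3% and 77.0% of the few UMIs in PBS. In them the level was 8.82 CPM in PBS and 68.3 CPM after a single dose of bleomycin, and 18.5 and 31.1 CPM in the repetitive pair. MEFB-like cells stood at 159 and 176 CPM in the bleomycin libraries, where 4 of 20 and 9 of 57 cells held all of their Sfrp2 UMIs, and 47 smooth muscle-like cells of repetitive bleomycin at 142 CPM. After thinning, 2 of 13 MEFB-like cells of repetitive PBS and 3 of 54 of repetitive bleomycin had an Sfrp2 UMI, so here too the total depends on the cells caught. LipoFB-like cells had 0 UMIs in either PBS library, which allows 0.708 and 0.0683 CPM by 3 counts, and 0.617 and 2.84 CPM after bleomycin. The latter were 1 UMI in 1 cell and 37 UMIs in 7 of 1727 cells, and with a subset score of at least 0.25 the log2 ratio of the repetitive pair was 0 in place of 1.94.

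Frzb was seen in 2 UMIs of single-dose PBS FBs (0.324 CPM) and 7 UMIs of repetitive PBS FBs (0.119 CPM). After bleomycin there were 112 UMIs (10.7 CPM) and 457 UMIs (7.57 CPM). The ratios of 33.0 (8.92 to 276) and 63.4 (30.5 to 159) are therefore wide, and the log2 ratios of 3.14 and 2.94 depend on the 1 CPM added. MyoFB-like cells had the highest level of any subset of at least 20 cells, 26.1 and 31.0 CPM, and held 49.1% and 38.5% of the Frzb UMIs of bleomycin FBs with 20.1% and 9.41% of all UMIs. Since hardly any MyoFB-like cell was caught in PBS, the level of Frzb within them has no control.

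Wif1, an antagonist built unlike the Frizzled-related proteins, stood at 2.11 and 2.67 CPM in the single-dose pair, on 13 and 28 UMIs, a difference not detectable at this depth (1.27 times, 0.636 to 2.67). In the repetitive pair it stood at 0.972 and 3.64 CPM (3.75 times, 2.79 to 5.11), a log2 ratio of 1.24. With 5 CPM added in place of 1 CPM it was 0.53, under the bound used for counting. The 57 Wif1 UMIs of repetitive PBS FBs sat in 21 cells, and the interval does not cover which cells were caught. Ductal FB-like cells had 32.7 CPM in repetitive PBS and 81.9 CPM in repetitive bleomycin (2.50 times, 1.63 to 3.94) and held 50.9% and 41.8% of the Wif1 UMIs with 1.51% and 1.86% of all UMIs. The ductal gate, Adh7 included, was chosen with earlier results of these data known, so its overlap with Wif1 is a description and no independent result. Adh7 was found in 85.7% of the 21 Wif1+ FBs of repetitive PBS against 7.84% of the others, and in 38.8% of the 103 Wif1+ FBs of repetitive bleomycin against 4.97%. In the single-dose libraries it was found in 3 of 5 and 4 of 14 Wif1+ FBs, and in organoid FBs in 4.04% of Wif1+ and 8.51% of other cells (normal) and 4.81% and 1.90% (fibrogenic). These shares were not thinned, so deeper cells show both genes more often.

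Dkk3 was found in all subsets and differed in opposite directions in the 2 experiments. It stood at 149 and 129 CPM in the single-dose pair (0.869 times, 0.799 to 0.946) and at 142 and 224 CPM in the repetitive pair (1.57 times, 1.53 to 1.62). In LipoFB-like cells the level was 145 and 157 CPM after a single dose and 139 and 257 CPM after repetitive doses, and in MatrixFB-like cells 129 and 101 CPM, and 111 and 166 CPM. The repetitive bleomycin library had the highest level of the 4 in both subsets.

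The FB levels above mix the level within a subset with the number of cells in each subset. When the subset levels of the bleomycin library were weighted by the UMI shares of the PBS library, the log2 ratio of Wnt2 went from -0.996 to 0.09 after a single dose and from -1.04 to -0.11 after repetitive doses. That of Rspo1 went from 0.87 to -0.07 and from 0.76 to -0.08. With a subset score of at least 0.25 the weighted values of Wnt2 after repetitive doses and of Rspo1 in both experiments took the other sign. No direction is therefore read from them. By contrast Wnt5a was 1.54 and 1.499 at PBS shares, against 1.49 and 1.67 as captured, and Sfrp1 was 2.75 and 2.32, against 3.40 and 2.73. Sfrp2 was 2.17 and 1.20 at PBS shares, against 3.36 and 2.29, and Frzb was 2.13 and 1.92, against 3.14 and 2.94. Wnt4 was 0.04 and -0.08 at PBS shares, against 0.28 and -0.27, and Dkk3 was 0.01 and 0.79, against -0.20 and 0.65. Wif1 was 0.27 and 0.76, against 0.24 and 1.24. Weighted values for MyoFB-like and MEFB-like cells rest on very small PBS subsets, and the weighting takes the gates as given, with the limits on LipoFB markers and depth stated above.

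**Figure D4:**
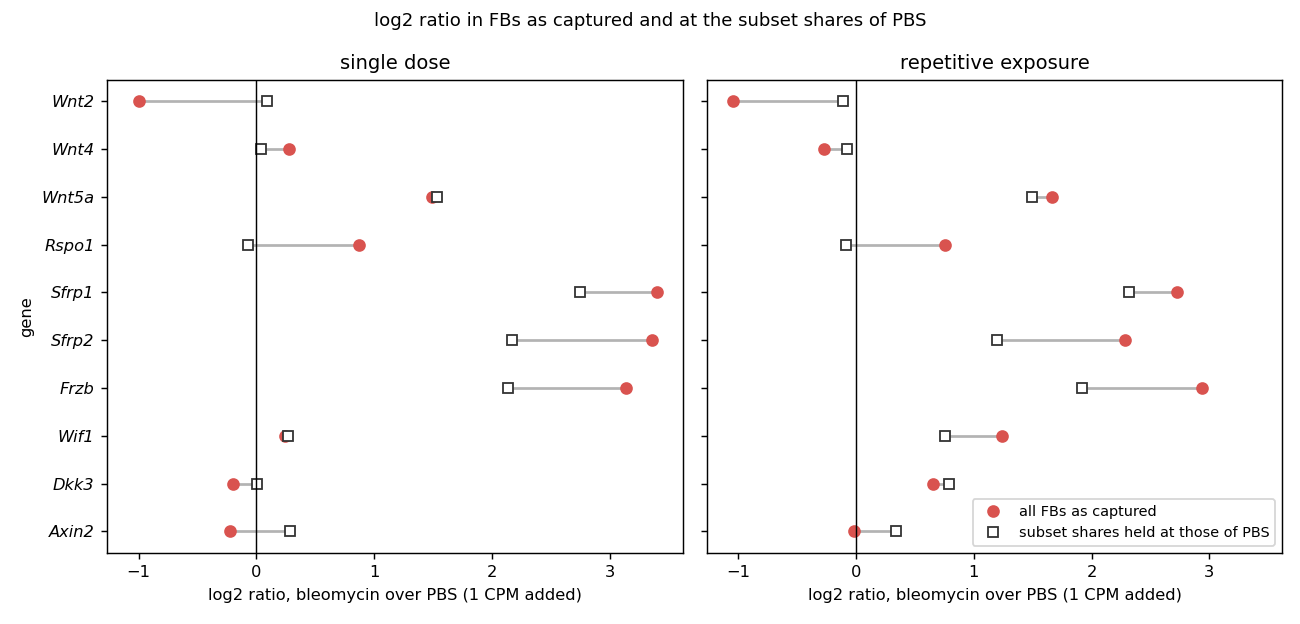
The log2 ratio of bleomycin over PBS (1 CPM added) for each gene in all FBs as captured (red points) and with the subset shares held at those of the PBS library (open squares), for the single dose (left) and repetitive exposure (right). The squares of Wnt2 and Rspo1 lie between -0.11 and 0.09, whereas those of Sfrp1, Sfrp2, Frzb and Wnt5a stay at 1.20 or above.

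Axin2 stood at 32.1 and 27.4 CPM in FBs of the single-dose pair (0.854 times, 0.710 to 1.03) and at 38.3 and 37.9 CPM in the repetitive pair (0.990 times, 0.933 to 1.05), both intervals including no difference. By subset it was slightly higher after bleomycin in LipoFB-like cells, at 33.5 and 45.6 CPM (1.36 times, 1.01 to 1.81) and at 42.5 and 53.7 CPM (1.26 times, 1.16 to 1.38). MatrixFB-like cells were lower and nearly level, at 21.2 and 20.03 CPM and at 17.4 and 19.4 CPM. Ductal FB-like cells of the repetitive pair had 56.4 and 66.8 CPM, the highest of the subsets of at least 20 cells in each of those libraries. At PBS shares the log2 ratio of Axin2 was 0.29 and 0.34.

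Organoid FBs, after 2 weeks in culture, had other levels of several members than fresh FBs. Wnt2 stood at 6.35 CPM in normal and 5.50 CPM in fibrogenic organoid FBs and Axin2 at 1.52 and 0.850 CPM, below all 4 lung libraries. Sfrp1 stood at 653 and 730 CPM and Frzb at 86.4 and 108 CPM, above all 4. These are levels in separate experiments with their own gene tables, and fresh and cultured FBs were not set against each other by a ratio. Between the origins, 0 of the 8 members that passed the filter were counted as higher and 1 as lower in fibrogenic FBs, where 0.307% of 11719 genes were higher and 0.947% lower. This count too is a description. The member was Sfrp2, which passed the filter through its normal level, at 5.84 CPM in normal and 1.53 CPM in fibrogenic organoid FBs (0.261 times, 0.224 to 0.304), which is the opposite of its direction in fresh lung FBs. Its log2 ratio of -1.44 was -0.73 with 5 CPM added and -0.99 with all barcodes, both short of the bound. It was lower in each of the MyoFB-like (6.75 and 0.994 CPM), MatrixFB-like (3.28 and 0.584 CPM) and other FBs (6.67 and 1.83 CPM). Wnt4 stood at 18.0 and 10.0 CPM (0.557 times, 0.521 to 0.595), and Axin2, which did not pass the filter, had a ratio of 0.559 (0.442 to 0.707). The remaining ligands and antagonists that passed, Wnt2, Wnt5a, Rspo1, Sfrp1, Frzb and Dkk3, had log2 ratios between -0.18 and 0.31. The subset gates held less well in culture, with 59 of 160 LipoFB-like cells of normal organoid FBs just above the cut.

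In the epithelial cells of the organoids, gated by epithelial markers (1712 with normal and 1635 with fibrogenic FBs), Axin2 served as a readout of the signal received. Few UMIs were found in either, 84 UMIs (1.25 CPM) and 61 UMIs (1.34 CPM), and a difference was not detectable at this depth (1.08 times, 0.760 to 1.51). Within AEC2-like cells it stood at 1.35 and 1.26 CPM (0.932 times, 0.626 to 1.37) and within AEC1-like cells at 1.43 and 1.49 CPM, on 6 and 4 UMIs.

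Of the ligands, Wnt4 differed between the epithelial groups. AEC1-like cells, which resemble the flat cells of gas exchange, had 25.3 and 17.1 CPM with normal and fibrogenic FBs (0.676 times, 0.468 to 0.964), AEC2-like cells 3.71 and 4.05 CPM, and cells like the transitional PATS state 19.6 and 6.34 CPM (0.323 times, 0.167 to 0.605). The PATS-like cells numbered 78 and 172, and after thinning 1 of 68 and 1 of 153 had a Wnt4 UMI. So did 6 of 145 and 2 of 137 AEC1-like cells. In the other direction were AEC2-like cells (3 of 1233 and 9 of 1059) and cycling epithelial cells (1 of 132 and 4 of 100). Sfrp1 was the single member with a log2 ratio past 1 in the epithelium, at 3.85 and 9.73 CPM (2.53 times, 2.16 to 2.96). Of 11492 genes 0.557% were higher and 0.0957% lower. After thinning, an Sfrp1 UMI was found in 3 of 1233 and 15 of 1059 AEC2-like cells and in 0 of 145 and 5 of 137 AEC1-like cells. Among cycling epithelial cells it was found in 0 of 132 and 2 of 100. PATS-like cells went the other way, with 3 of 68 and 3 of 153. Sfrp1 was at 653 CPM or more in the FBs of the same cultures. UMIs of genes on the FB marker lists were also found in the epithelial barcodes of both cultures. There the 8 FB markers summed to 601 and 742 CPM and the MyoFB list to 227 and 373 CPM. The LipoFB list summed to 438 and 385 CPM and the MatrixFB list to 122 and 109.8 CPM. In the organoid FBs the LipoFB list summed to 394 and 375 CPM, so it did not set FBs apart from epithelium in culture. Whether the UMIs of these lists came from FBs or from the epithelial cells was not tested. Frzb (0.580 and 1.54 CPM) and Dkk3 (0.461 and 1.26 CPM) had the same direction at levels near 1 CPM. The part of free FB RNA in these values was not tested.

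**Figure D5:**
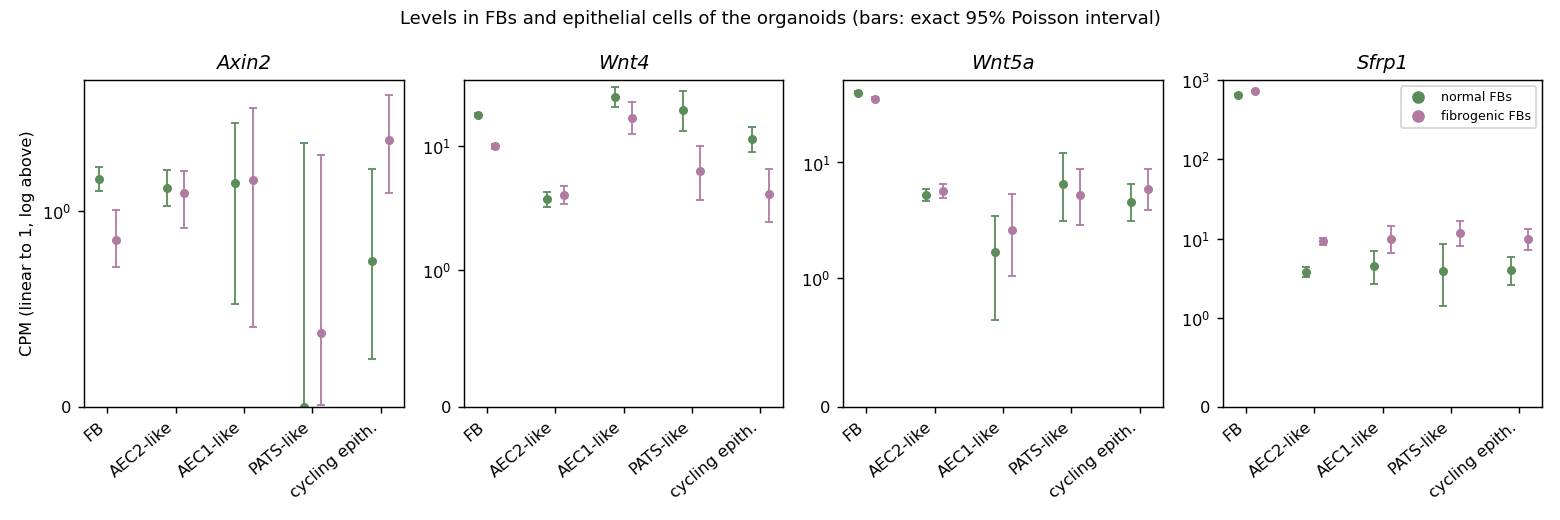
Levels of Axin2, Wnt4, Wnt5a and Sfrp1 in the organoid FBs and epithelial cell groups with normal (green) and fibrogenic (purple) FBs, in CPM on an axis that is linear up to 1 and logarithmic above, with exact Poisson intervals. The Axin2 intervals of the 2 cultures overlap in each epithelial group, Wnt4 is higher in AEC1-like than in AEC2-like cells of both cultures, and Sfrp1 is far lower in each epithelial group than in the FBs.

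A wider list of 74 other genes of the pathway gives the setting of these members. After a single dose 46 passed the filter on low values, of which 12 were counted as higher and 0 as lower (7.91% and 3.87% of all genes), with a median log2 ratio of 0.32. After repetitive doses 50 passed, with 12 higher, 0 lower (6.85% and 2.18% of all genes) and a median of 0.30. Genes that are low in PBS could pass here too through their bleomycin level alone. By role, and among the genes that passed after a single dose and after repetitive doses, those higher were 2 of 5 and 1 of 4 other ligands, 1 of 2 and 0 of 2 genes of Wnt secretion, 1 of 1 and 2 of 2 R-spondins, and 2 of 3 and 2 of 4 secreted antagonists. They were 3 of 14 and 3 of 14 receptors, 0 of 2 and 1 of 4 R-spondin receptors and ligases, 0 of 9 and 0 of 9 cytoplasmic components, and 0 of 6 and 1 of 7 nuclear factors. Of the response genes other than Axin2, 3 of 7 and 3 of 10 were higher, with median log2 ratios of 0.86 and 0.29. A gene with 2 roles counts under both. The 8 genes higher in both experiments were the antagonists Dkk2 and Sfrp4, the R-spondin Rspo3, the receptor Fzd1, the Wnt5a co-receptors Ror1 and Ror2, the feedback inhibitor Nkd2 and the cell cycle gene Ccnd1. The share of all genes higher in both experiments is not given here, so this number is a description and not a trait of the pathway.

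Dkk2 had the highest ratio of the list in both experiments. It stood at 0.486 CPM (3 UMIs) in PBS and 24.1 CPM after a single dose of bleomycin and at 4.38 and 50.9 CPM in the repetitive pair, with log2 ratios of 4.08 and 3.27. Ror1 and Ror2, which bind Wnt5a, had log2 ratios of 2.66 and 1.40 after a single dose and of 1.84 and 1.58 after repetitive doses. Sfrp4 had 1.52 and 2.12, Rspo3 1.72 and 1.53, Fzd1 1.35 and 1.04, Nkd2 1.06 and 1.93, and Ccnd1 2.49 and 2.39. The lowest ratio in both was that of the receptor Fzd7, at -0.72 and -0.53. Between organoid FBs of the 2 origins, 47 of the 74 passed and only Sfrp4 was past the bound, at a log2 ratio of 1.53, where 0.307% of all genes were higher and 0.947% lower, with Tcf7, a nuclear factor of the pathway, lowest at -0.69. In the organoid epithelium 40 passed and 0 were past the bound (0.557% and 0.0957% of all genes), from Fzd4 at -0.51 to Ror1 at 0.77.

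Over the 21 subset-by-library groups of at least 20 cells in the lung libraries, and among 6261 genes of at least 20 CPM on average, the genes whose log2 level followed that of Wnt2 most closely were Upk1b (Pearson r = 0.91), Tmem38b (0.90) and Gyg (0.89). For Sfrp1 they were Col3a1 (0.91), Sparc (0.89) and Igf1 (0.86), of which the collagen gene Col3a1 and the matrix gene Sparc are among the FB markers of the gate. For Wnt5a they were the protease gene Ctsk (0.91), Adamts2 (0.85), which encodes a procollagen protease, and Pltp (0.80). Axin2 was followed less closely, by Wtip (0.79), Nuak1 (0.74) and Dkk3 (0.73). These correlations are over groups that share libraries and gates, and are given as a description.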

How the data were processed

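The authors sequenced 6 droplet libraries and deposited raw UMI counts per gene and barcode, made with Cell Ranger 3.0.1 on the mm10 build; the submitters' notes also name Seurat 3. No deposited column was left without a sample (0). Barcodes more than 3 median absolute deviations above the median mitochondrial share were removed. A barcode joined a lineage with 3 of its markers at 20 UMIs per 10000, and an FB or epithelial subset with 3 of its markers and a score of 0.15 or more, the mean of marker levels relative to percentile 99 of the experiment. Barcodes with markers of a second lineage were removed, and no doublet caller was run. UMIs were summed per group, and the levels are CPM with exact Poisson intervals. Log2 ratios used 1 CPM added, with intervals built from the Poisson bounds, and ratios without it have exact conditional binomial intervals. Shares were taken at 1000 UMIs per cell, with exact binomial intervals. Subsets were ranked only among groups of at least 20 cells. The log2 ratio and its interval were tried on simulated Poisson counts of whole libraries, the same model from which the intervals are built. The gates, the thinning and the weighting by subset shares were not part of this. Genes as low as Frzb, Sfrp2 or Wif1 in PBS were not among its changed genes.

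The members, the marker and pathway lists and the rule for named genes were chosen with earlier results of these data known. The rule named all members, the pathway genes past a log2 ratio of 1 in both lung experiments and the highest and lowest of each comparison, and the 3 genes most correlated with each of Wnt2, Sfrp1, Wnt5a and Axin2. The alternatives were 5 CPM added, no filter on low values, all barcodes, cells gated by Leiden clusters (resolution 1), centring on the median gene, barcodes of at least 2000 UMIs, the mean of per-cell CPM, and mixed barcodes kept. Depth was 7196200 to 238618743 UMIs per library. Python 3.11.15, numpy 2.4.6, scipy 1.17.1, pandas 2.3.3, scanpy 1.11.5, anndata 0.12.19, igraph 0.11.9 and matplotlib 3.10.9 were used. Sequences came from RefSeq (GRCm38.p6).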

Additional observations from a re-analysis of the deposited data

Results flagged for a closer look

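In FBs of the lung, 2 members differed from PBS in opposite directions in the single-dose and the repetitive experiment. For Wnt4 the log2 ratio of the repetitive pair minus that of the single-dose pair was -0.551, from ratios of 0.28 and -0.27. For Dkk3 it was 0.851, from ratios of -0.20 and 0.65. In the single-dose bleomycin library 20 MEFB-like cells held 124 of the 447 Wnt4 UMIs of FBs. The PBS library held 1 such cell, with 16 of 216. The direction of Wnt4 over FBs thus also depends on how many MEFB-like cells were caught. At the subset shares of PBS the ratios of Wnt4 were 0.04 and -0.08 and those of Dkk3 0.01 and 0.79, and in LipoFB-like cells Dkk3 was at 145 CPM in PBS and 157 CPM in bleomycin after a single dose and at 139 and 257 CPM after repetitive doses. All of the ratios as captured were under 1 in size. The share of all genes with opposite directions in the 2 experiments is not given here, so the count of members is a description. With 1 library per condition neither difference was tested.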

How the results depend on the processing

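With 1 library per condition, differences between mice or preparations cannot be told apart from differences between conditions. Depth limits Frzb, Sfrp2 and Wif1 in PBS FBs and Axin2 in organoid epithelium, and the gates are ranges of a score. No paired analysis was possible because each condition has 1 library.

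Of 48 counts of members past a log2 ratio of 1 under the alternatives, 43 stayed within 1.5 times. After a single dose the count of lower members was 1 with ratios centred on the median gene (Wnt2 at -1.07), against 0. In the repetitive pair it was 0 with 5 CPM added (Wnt2 at -0.998), against 1. In organoid FBs it was 0 with 5 CPM added, 0 with all barcodes and 2 with the mean of per-cell CPM (Wnt4 joined at -1.07), against 1. The Axin2 log2 ratio in organoid epithelium, 0.06, was -0.29 with all barcodes, FBs included, and 0.55 with the mean of per-cell CPM. Of 210 log2 ratios of single members in FBs, 3 took the other sign, all in organoid FBs with all barcodes (Wnt2 0.06, Wnt5a 0.07, Rspo1 0.05), and 7 crossed a size of 1, among them Rspo1 after a single dose (1.35 with per-cell means) and Wif1 in the repetitive pair (0.53 with 5 CPM added). The cause of these differences was not tested beyond how each alternative is built. Of 80 ratios within LipoFB-like and MatrixFB-like cells, under alternatives chosen after seeing the data, 5 took the other sign and 5 crossed a size of 1, and of 40 at PBS shares 4 took the other sign. With a stricter subset score of 0.25 the ratio of Wnt2 in LipoFB-like cells of the repetitive pair was 0.20, against -0.17, and those of Sfrp2 and Frzb were 0 and 0.28, against 1.94 and 1.69. With that score the ratios at PBS shares were 0.19 and 0.18 for Wnt2, 0.14 and 0.11 for Rspo1, 2.98 and 2.29 for Sfrp1, and 1.37 and 1.37 for Wnt5a.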
